A study of Oryza sativa Japonica Group with 30 samples.

Results

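Auxin response factors, auxin receptors and PIN efflux carriers were followed in rice leaves under normal watering and drought. The set was chosen by locus identifier, with no filter on expression but with earlier results of these data known. It is a list of ARF and PIN genes together with 2 receptors, OsTIR1 and OsAFB2, and does not hold every rice gene of these families. It comprises 38 of the 55490 features in the deposited expression table, namely 25 ARF genes, 2 receptor genes and 11 PIN genes. Leaves came from ZH11 (Zhonghua 11, a japonica rice variety) and from OE-19, a single transgenic line in the ZH11 background. OE-19 carries the full-length coding sequence of SNAC1, a stress-responsive NAC transcription factor, under the maize ubiquitin promoter, which is active in most tissues. Plants of both genotypes shared pots, with 10 plants of each, and were sampled at the 4-leaf stage. The groups were ZH11-N and SNAC1-N, which were watered normally, and ZH11-D and SNAC1-D, from which water was withheld for 10 to 15 days until the leaves rolled. Each group had 3 libraries, described in the study as independent replicates, so that 12 libraries were compared. A single line cannot separate the effect of SNAC1 from that of the insertion site. SNAC1 binding was also measured in this series, but the bound intervals carry no gene names and were not analysed here at these genes.

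Auxin moves from cell to cell with the help of influx carriers and of PIN proteins, which export it. Long-loop PIN proteins sit in the plasma membrane and set the direction of flow, whereas short-loop PIN proteins are found largely at the endoplasmic reticulum and act on auxin inside the cell. TIR1 and its AFB relatives are F-box receptors that, with auxin bound, send the Aux/IAA repressors to degradation and so release the ARF transcription factors. ARF proteins with a glutamine-rich middle region are known mainly as activators of auxin-responsive genes, and the others mainly as repressors. Several are held down by small RNAs. miR167 targets the ARF6 and ARF8 class of Arabidopsis, miR160 the ARF10, ARF16 and ARF17 class, tasiR-ARFs the ETTIN class and miR393 the receptors. Rice plants that overexpress miR393 tiller more and tolerate drought and salt less well.

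Levels are given as FPKM, fragment counts scaled to transcript length and to the mapped fragments of the library, so that genes of different length can be ordered. The table gives no fragment counts, and the depth of the libraries and the counting error of low values are therefore unknown. The transgene was visible in the label check: the FPKM of SNAC1 was 847 ± 129 (SD, n = 3) for SNAC1-N against 37.2 ± 9.06 (SD, n = 3) in ZH11-N, and 798 ± 164 (SD, n = 3) in SNAC1-D against 430 ± 101 (SD, n = 3) in ZH11-D. The sum over 3 genes fixed as markers of the drought treatment ran from 32.6 to 500 in the watered libraries and from 12331 to 27073 under drought. The sum over 4 leaf mesophyll genes (Rubisco small subunit and light-harvesting proteins) was 33725 to 56520 in watered leaves and 7916 to 16160 in droughted leaves, so the mesophyll identity of the tissue was plain in all 12 libraries. A root marker did not exceed 0.536 in any library and was listed at 0 in all 6 drought libraries. The shoot meristem genes (KNOX class, 3 genes) summed to at most 0.588, with 2 of the 3 listed at 0 throughout. The libraries numbered 1 moved together in both genotypes within each watering condition, whereas watered numbers 2 and 3 were not clearly matched by number. The watered libraries numbered 1 of both genotypes stood apart most, being at once the lowest or the highest of their groups for 70.2% of the 19979 features tested. The sum over 4 genes fixed as markers of dividing cells was also highest there, at 27 in ZH11-N replicate 1 and 25.2 in SNAC1-N replicate 1, against 10.6 to 19 in the other watered libraries and 9.27 to 11.6 under drought, and the part of such cells in the results was not tested. Among the auxin genes they were the lowest in both genotypes for 16 of 25, beside 42.2% of all features, and the highest for 1 (OsARF5), beside 28.0%, and the results that rest on them are given with and without them.

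Of the 38 genes, 25 had an average FPKM of 1 or more and were tested. These were 20 of 25 ARF genes, both receptors and 3 of 11 PIN genes. Of the other 13 genes, 2 (OsARF20 and LOC_Os07g08530) were listed at 0 in every library, and the remaining 11 had mean FPKM values of at most 0.266. The split was wide, since the lowest mean among the tested genes was 2.68. All 4 ETTIN-class ARF genes passed the filter, as did 7 of 9 activator-type, 3 of 4 miR160-class and 6 of 8 other repressor-type genes. Among the carriers it was passed by 2 of 7 long-loop and 1 of 4 short-loop genes. The 2 members listed as OsARF21 and OsARF22 are called here by their identifiers, LOC_Os07g08530 and LOC_Os07g08600, because RefSeq places genes of those names on other chromosomes. LOC_Os07g08530 is counted as activator type by its listed name alone, and its type was not checked.

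**Figure D1:**
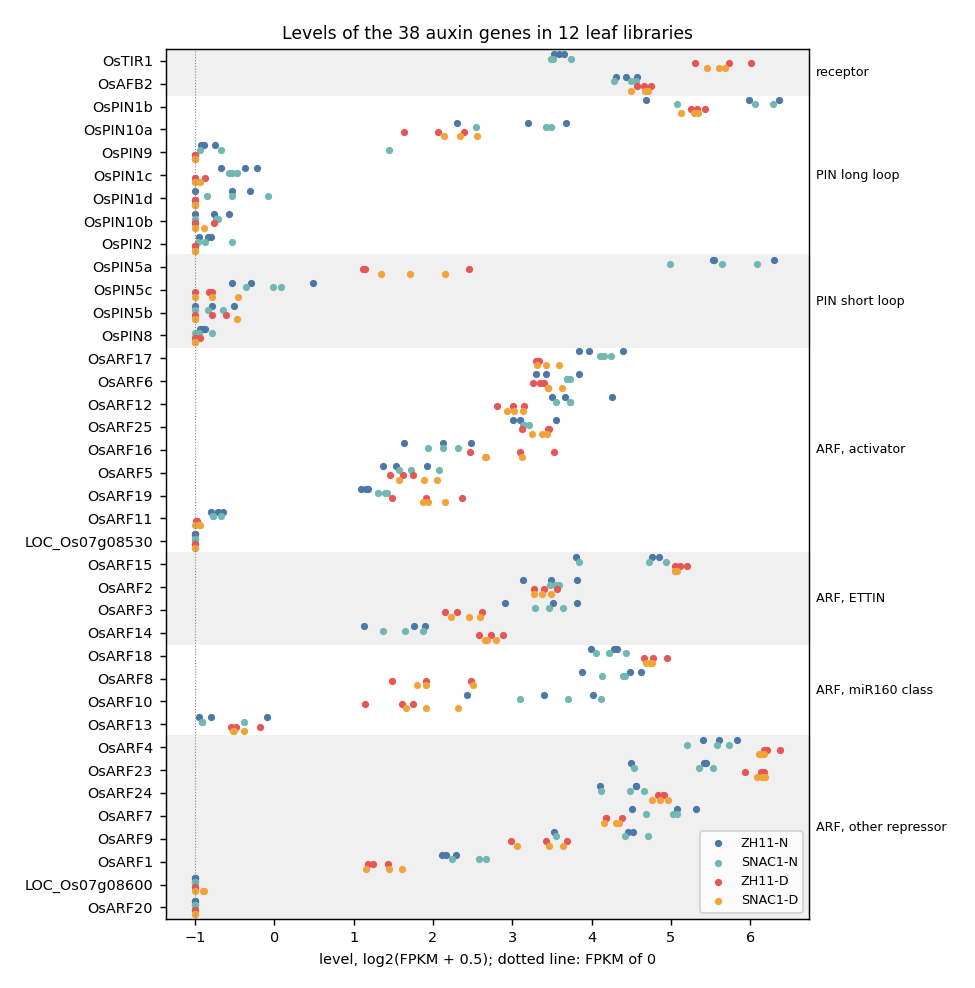
Level of each of the 38 genes in each of the 12 libraries, as log2(FPKM + 0.5), with 1 point per library coloured by group and genes grouped by role. The 13 genes that were not tested lie at or near the dotted line that marks an FPKM of 0, the furthest from it being OsPIN9 in 1 SNAC1-N library, at 2.22.

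In watered leaves the carriers OsPIN1b and OsPIN5a led the set. Mean FPKM was 56.6 and 56.7 in ZH11-N, and 59.1 and 49.4 in SNAC1-N, and the libraries of the 2 genes overlapped in both genotypes. OsARF4 (49 in ZH11-N) and OsARF23 (35.7) followed, again with overlapping libraries. Under drought the order changed. OsARF4 and OsARF23 stood first and second in ZH11-D, at 76.1 and 67.4, and both at 70.2 in SNAC1-D, with no separation between them. OsTIR1 rose from rank 14 to rank 3 in ZH11 and from rank 16 to rank 3 in OE-19. OsPIN5a fell from rank 1 to rank 22 in ZH11 and from rank 2 to rank 24 in OE-19. The summed FPKM of the 25 ARF genes was 314 ± 71.4 (SD, n = 3) in ZH11-N and 342 ± 12.6 in ZH11-D, and 316 ± 54 in SNAC1-N and 339 ± 4.82 in SNAC1-D, so the watered libraries spanned the drought libraries in both genotypes. The sum over the 11 PIN genes, 76.5 to 151 in ZH11-N and 71.3 to 156 in SNAC1-N, lay between 42 and 49.6 in ZH11-D, and between 40.6 and 49 in SNAC1-D, with no overlap. The 7 long-loop genes alone did overlap, at 29.8 to 94.8 in ZH11-N and 40.2 to 46.2 in ZH11-D. Their sums were 39.2 to 88.3 in SNAC1-N and 38.5 to 44.6 in SNAC1-D. The separation of the total thus rests on the short-loop genes, of which only OsPIN5a passed the filter.

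Drought raised some of these genes and lowered others. Differences are given as log2FC, the difference between group means of log2(FPKM + 0.5), and a gene is called where log2FC is at least 1 in size with an adjusted p under 0.05 (limma, Benjamini-Hochberg over all 19979 features). In ZH11, 2 of the 25 tested genes were called higher under drought (OsTIR1 and OsARF14) and 5 lower (OsPIN5a, OsARF8, OsARF10, OsARF3 and OsPIN10a). That is 7 of 25 beside 32.0% of all features tested, of which 13.8% were higher and 18.2% lower. In OE-19, 3 were called higher (OsTIR1, OsARF14 and OsARF23) and 5 lower (OsPIN5a, OsARF8, OsARF10, OsARF1 and OsARF3), which is 8 of 25 beside 31.0% of all features (13.2% higher and 17.9% lower). As a share of the set, the number of calls was thus near the background in both genotypes, and it is the individual genes that differ from each other. The median log2FC of the 25 genes was -0.06 in ZH11 and -0.16 in OE-19, beside 0.06 and 0.07 over all features. In ZH11 this median moved with single libraries. It was -0.23 without ZH11-N replicate 1, -0.14 without ZH11-D replicate 1, -0.12 without ZH11-N replicate 3, -0.000488 without ZH11-N replicate 2 and 0.01 without ZH11-D replicate 2. It was also -0.14 with no filter (36 genes), -0.14 after median ratio scaling and -0.18 for the 21 genes with a mean FPKM of at least 5. The medians over all features were then 0, -0.02 and 0.10. With 1 ZH11 library left out they lay between 0.04 and 0.07. In OE-19 it lay between -0.19 and -0.11 when 1 library was left out. The same 2 genes were called higher and the same 4 lower in both genotypes, 16 were called in neither, and all 25 had the same sign in both. How many of all features agreed in these ways was not counted, so the agreement is not read as particular to this set. Without the watered libraries numbered 1 the counts were 1 higher and 6 lower in ZH11, beside 3103 and 4238 of the 19979 features. For OE-19 they were 1 higher and 7 lower, beside 2965 and 4142 features. A further 10 genes in ZH11 and 7 in OE-19 had an adjusted p under 0.05 with a log2FC under 1 in size. By the adjusted p alone, 8 genes were higher and 9 lower in ZH11, beside 28.3% and 26.0% of all features (54.3% in either direction). In OE-19, 7 were higher and 8 lower, beside 27.9% and 25.5% (53.4% in either direction). Of the leaf mesophyll markers, 3 of 4 in ZH11 and 4 of 4 in OE-19 were also called lower, as was 1 of 3 tested markers of dividing cells in each genotype, and their part in the lower values was not tested. Since these are whole leaves, a lower value can mean fewer cells that express the gene or less RNA per cell, and the 2 cannot be told apart.

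**Figure D2:**
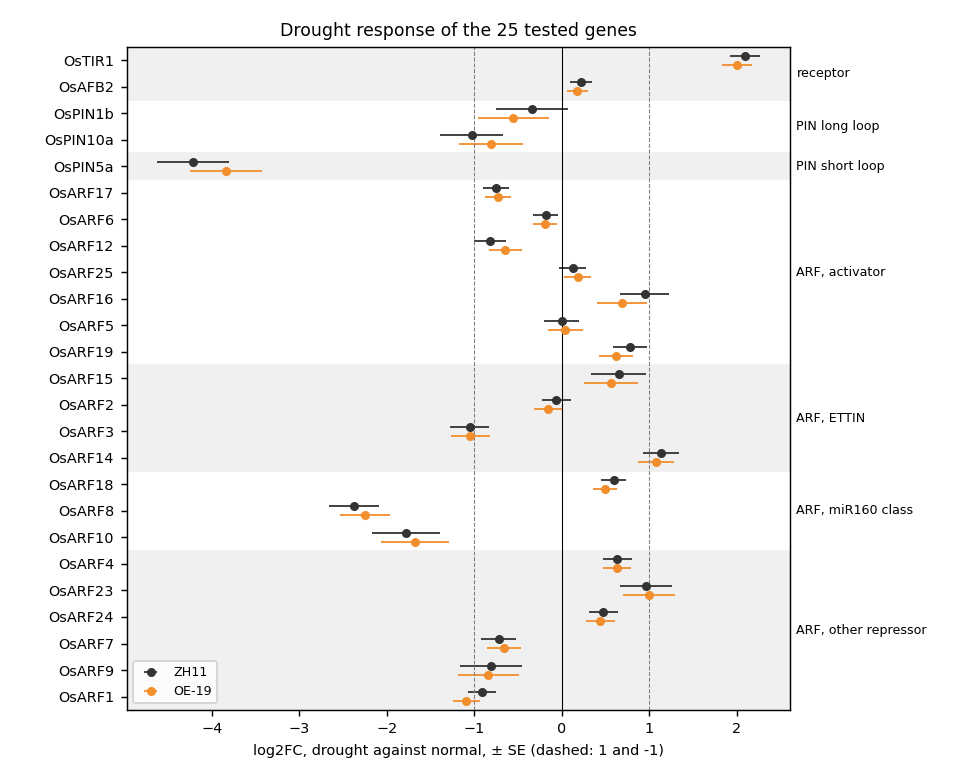
Drought response of the 25 tested genes as log2FC of drought against normal watering, ± SE from limma, in ZH11 (black) and OE-19 (orange), with genes grouped by role. OsTIR1 lies furthest on the higher side, at 2.09 and 2.00, and OsPIN5a, OsARF8 and OsARF10 lie furthest on the lower side, in both genotypes.

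The auxin receptor OsTIR1 (LOC_Os05g05800) had the clearest rise. Its FPKM was 12.1, 11 and 11.5 in ZH11-N and 39, 63.8 and 52.9 in ZH11-D. In OE-19 it was 10.8, 12.8 and 10.9 in SNAC1-N and 43.3, 50.8 and 48.4 in SNAC1-D. All 6 drought libraries lay above all 6 watered ones, and the watered libraries were close to each other in both genotypes. The log2FC was 2.09 (SE 0.170, adjusted p = 7.88e-06) in ZH11 and 2.00 (SE 0.170, adjusted p = 1.16e-05) in OE-19, a 4.27-fold and a 4.01-fold rise. The library numbered 1 was the lowest and the library numbered 2 the highest of the drought libraries in both genotypes. The summed level of the drought treatment markers had the same order, at 12331, 27073 and 23259 in ZH11-D and 12356, 22563 and 17479 in SNAC1-D. Of all features, 28.5% were lowest in drought library 1 of both genotypes, and 23.8% were highest in drought library 2 of both. The part of treatment strength in the spread of OsTIR1 was not tested.

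The related receptor OsAFB2 (LOC_Os04g32460) did not pass the test. It read 19.3, 23.3 and 21.1 in ZH11-N and 23.3, 26.3 and 24.8 in ZH11-D, and 23.1, 18.9 and 22 in SNAC1-N and 22, 25.7 and 25 in SNAC1-D, with groups that met or overlapped in both genotypes. The log2FC was 0.22 (SE 0.125, adjusted p = 0.158) in ZH11, with a 95% interval from -0.06 to 0.50, and 0.18 (SE 0.125, adjusted p = 0.244) in OE-19, with an interval from -0.10 to 0.46. Because the values are per length, both receptors can be set side by side in each library. The ratio of the OsTIR1 level to the OsAFB2 level was 0.465 to 0.677 in the 6 watered libraries and 1.68 to 2.42 in the 6 drought libraries. OsAFB2 was thus the more abundant of the pair in every watered library and OsTIR1 in every drought library. A further 3 genes of the TIR1/AFB family outside the set were tested, and 1 was called lower in each genotype and none higher.

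Among the carriers, the short-loop gene OsPIN5a (LOC_Os01g69070) had the largest response of the whole set. FPKM values were 46.2, 45.8 and 78 in ZH11-N and 5.00, 1.71 and 1.68 in ZH11-D. They were 31.3, 67.2 and 49.6 in SNAC1-N and 3.94, 2.04 and 2.77 in SNAC1-D. No drought library came near the lowest watered library in either genotype. The log2FC was -4.22 (SE 0.412, adjusted p = 2.46e-05) in ZH11 and -3.84 (SE 0.412, adjusted p = 4.80e-05) in OE-19, an 18.6-fold and a 14.3-fold lower level on the log2(FPKM + 0.5) scale. The drought libraries numbered 1, with the lowest sums of the treatment markers, held the highest OsPIN5a levels of their groups. They were likewise the highest in both genotypes for 24.3% of all features, and the part of treatment strength was not tested.

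OsPIN1b (LOC_Os02g50960), a long-loop carrier, had the highest mean level of the PIN genes over the 12 libraries but no call. It stood at 25.2, 81.5 and 63.1 in ZH11-N and 39.8, 37.6 and 42.5 in ZH11-D. In OE-19 it stood at 33.2, 77.6 and 66.4 in SNAC1-N and 40.1, 34.6 and 38.8 in SNAC1-D. The watered library numbered 1 lay below all 3 drought libraries of its genotype and the watered libraries numbered 2 and 3 above them, so the groups overlapped. The log2FC was -0.34 (SE 0.409, adjusted p = 0.505) in ZH11 and -0.55 (SE 0.409, adjusted p = 0.279) in OE-19. Without the watered libraries numbered 1 of both genotypes it was -0.84 (SE 0.138, adjusted p = 0.000780 by limma) and -0.92 (SE 0.138, adjusted p = 0.000507). The size stayed under the threshold of 1. The ratio of OsPIN1b to OsPIN5a levels was 0.545 to 1.78 in watered libraries and 7.95 to 25.3 in drought libraries.

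OsPIN10a (LOC_Os01g45550), a PIN3-like long-loop carrier, was called lower under drought in ZH11 and not in OE-19, and the difference between the responses did not pass its own test. Its levels were 4.44, 12.3 and 8.69 in ZH11-N and 4.77, 2.59 and 3.69 in ZH11-D, and 5.34, 10.2 and 10.7 in SNAC1-N and 4.56, 3.92 and 5.38 in SNAC1-D. The watered library numbered 1 fell within the range of the drought libraries in ZH11 and just under the highest of them in OE-19. The log2FC was -1.03 (SE 0.363, adjusted p = 0.0341) in ZH11 and -0.81 (SE 0.363, adjusted p = 0.0849) in OE-19, and the difference between the 2 responses was 0.22 (SE 0.513, adjusted p = 1). The call in ZH11 was lost without ZH11-N replicate 2 (log2FC -0.72, adjusted p = 0.128), ZH11-N replicate 3 (-0.96, 0.0905), ZH11-D replicate 2 (-0.83, 0.124) or ZH11-D replicate 3 (-1.05, 0.0741). It was also lost with no filter on low values (-1.03, 0.0569), with only the 2 groups compared in the fit (-1.03, 0.0708), with a pseudocount of 1 (-0.95) and after quantile normalization (-0.89). Without the watered libraries numbered 1 the gene was called in both genotypes, at -1.41 in ZH11 and -1.11 in OE-19 (adjusted p = 0.000857 and 0.00314).

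**Figure D3:**
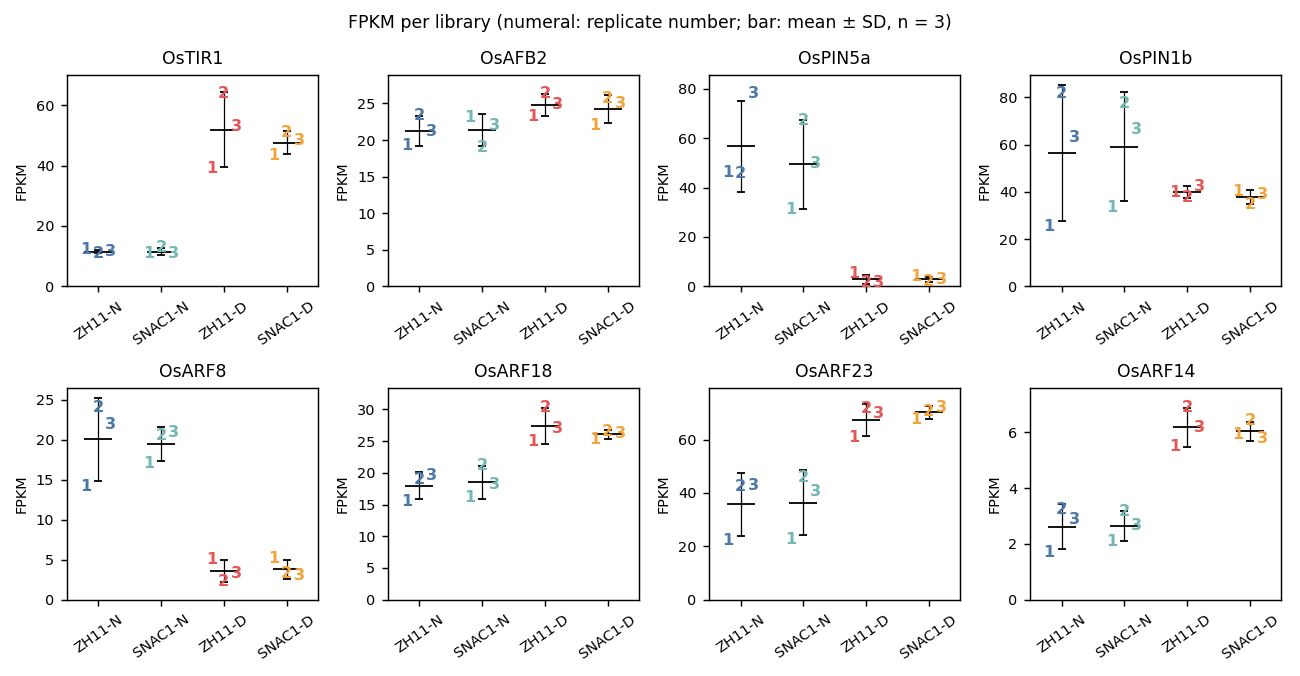
FPKM in each library for 8 genes, with the numeral giving the replicate number, the horizontal bar the mean and the vertical bar the SD (n = 3), on axes that start at 0. The watered libraries numbered 1 lie lowest for OsPIN1b, OsARF23 and OsARF14 in both genotypes, and OsTIR1 and OsPIN5a separate watered from drought libraries in every case.

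The other 8 PIN genes were at the edge of detection in leaves. OsPIN9 reached 2.22 in SNAC1-N replicate 3, but 0.0205 and 0.125 in the other SNAC1-N libraries and 0.0250 to 0.0968 in ZH11-N. No other untested gene exceeded 0.897, the level of OsPIN5c in ZH11-N replicate 3. OsPIN2, known from roots, OsPIN9 and OsPIN1d were listed at 0 in all 6 drought libraries. OsPIN1c lay between 0.129 and 0.356 in the watered libraries and between 0 and 0.0438 under drought, with no overlap. OsPIN5b, OsPIN8 and OsPIN10b were listed at 0 in some libraries of both watering conditions. Without fragment counts these small differences were not tested.

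The ARF genes with a glutamine-rich middle region gave no call in either genotype, in 7 genes tested. Of all features, 32.0% were called in ZH11 and 31.0% in OE-19, and the count in these 7 genes was not tested against those shares. OsARF17 (LOC_Os06g46410), the most abundant of them, read 15.1, 20.6 and 13.9 in ZH11-N and 9.32, 9.64 and 9.53 in ZH11-D. In OE-19 the values were 18.5, 16.8 and 17.3 in SNAC1-N and 9.46, 10.2 and 11.6 in SNAC1-D. Every drought library lay below every watered one, with a log2FC of -0.75 (SE 0.146, adjusted p = 0.00165) in ZH11 and -0.73 (SE 0.146, adjusted p = 0.00209) in OE-19, short of the size threshold. OsARF12 was also lower at an adjusted p under 0.05, by a log2FC of -0.82 in ZH11 and -0.64 in OE-19. These 2 genes belong with OsARF6 and OsARF25 to the miR167 class, and the latter pair did not pass the test, at -0.18 and 0.13 in ZH11 and -0.19 and 0.19 in OE-19. OsARF19 lay higher, at 0.78 in ZH11 and 0.62 in OE-19 (adjusted p = 0.00682 and 0.0221 by limma). OsARF16 had a log2FC of 0.95 in ZH11 (adjusted p = 0.0167) and 0.69 in OE-19 (adjusted p = 0.0642). It was called higher in ZH11 with a pseudocount of 0.1 (1.02), after quantile normalization (1.03) and without ZH11-D replicate 1 or ZH11-N replicate 2. OsARF5 had the smallest difference of all, 0.00 in ZH11 and 0.04 in OE-19, with 95% intervals from -0.44 to 0.44 and from -0.39 to 0.48. OsARF11, below the filter, lay between 0.0765 and 0.138 in watered libraries and between 0 and 0.0213 under drought. The summed FPKM of the 9 genes counted as activator type was 50.6 to 73.7 in ZH11-N and 45.2 to 54.3 in ZH11-D, with overlap. In OE-19 it was 57.7 to 61.6 in SNAC1-N and 49.3 to 54.3 in SNAC1-D, with none. LOC_Os07g08530, counted by its listed name alone, adds nothing to these sums.

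Of the 4 ETTIN-class ARF genes, 1 was called higher, 1 lower and 2 neither, in each genotype. OsARF14 (LOC_Os05g43920) was higher, at 1.70, 3.24 and 2.88 in ZH11-N and 5.51, 6.91 and 6.16 in ZH11-D, and at 2.08, 3.17 and 2.65 in SNAC1-N and 5.92, 6.44 and 5.79 in SNAC1-D. The groups were separated in both genotypes, with a log2FC of 1.14 (SE 0.203, adjusted p = 0.000954) in ZH11 and 1.08 (SE 0.203, adjusted p = 0.0014) in OE-19. The watered libraries numbered 1 were again the lowest, and without them the log2FC was 0.91 and 0.95 (adjusted p = 0.000341 and 0.000288), just under the threshold of 1. Leaving out ZH11-N replicate 1 or SNAC1-N replicate 1 alone gave these same values of 0.91 in ZH11 and 0.95 in OE-19.

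OsARF3 (LOC_Os01g54990), of the same class, was lower. It read 7.01, 13.6 and 10.9 in ZH11-N and 5.65, 3.95 and 4.46 in ZH11-D, and 9.26, 12 and 10.6 in SNAC1-N and 5.51, 4.17 and 4.97 in SNAC1-D, with no overlap. The log2FC was -1.05 (SE 0.225, adjusted p = 0.00281) in ZH11 and -1.04 (SE 0.225, adjusted p = 0.00302) in OE-19. Its size slipped under 1 without ZH11-D replicate 2 (-0.95), ZH11-N replicate 2 (-0.85), SNAC1-D replicate 2 (-0.95) or SNAC1-N replicate 2 (-0.96), with adjusted p values from 0.0104 to 0.0158.

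OsARF15 (LOC_Os05g48870), the most abundant gene of the ETTIN class, was not called. It stood at 13.4, 28.3 and 26.6 in ZH11-N and 32.7, 34.1 and 36.2 in ZH11-D, and at 13.8, 30.1 and 26 in SNAC1-N and 32.8, 33.3 and 32.8 in SNAC1-D. The drought libraries lay above the watered ones in both genotypes, but the watered libraries numbered 1 were far below the others. The log2FC was 0.65 (SE 0.312, adjusted p = 0.102) in ZH11 and 0.56 (SE 0.312, adjusted p = 0.152) in OE-19, and without those libraries it was 0.32 and 0.23 (adjusted p = 0.0182 and 0.0625). OsARF2, the fourth gene, had -0.06 and -0.16 with overlapping libraries. The ratio of OsARF15 to OsARF3 levels was 1.49 to 2.52 in watered libraries and 5.79 to 8.64 in drought libraries.

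In the miR160 class, OsARF8 and OsARF10 were called lower in both genotypes and OsARF18 was not. OsARF8 (LOC_Os02g41800) had FPKM values of 14.2, 24.1 and 22 in ZH11-N and 5.06, 2.30 and 3.27 in ZH11-D. In OE-19 they were 17.1, 20.5 and 20.9 in SNAC1-N and 5.18, 3.27 and 2.97 in SNAC1-D. The lowest watered library was well above the highest drought library in each genotype. The log2FC was -2.37 (SE 0.286, adjusted p = 8.62e-05) in ZH11 and -2.24 (SE 0.286, adjusted p = 0.000133) in OE-19, a 5.17-fold and a 4.74-fold lower level.

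OsARF10 (LOC_Os04g43910) read 4.87, 15.7 and 10.0 in ZH11-N and 2.85, 1.71 and 2.56 in ZH11-D, and 8.09, 16.8 and 12.5 in SNAC1-N and 4.46, 2.66 and 3.27 in SNAC1-D. The groups did not overlap, although the watered libraries of each genotype spread widely, with number 1 the lowest and number 2 the highest. The log2FC was -1.78 (SE 0.390, adjusted p = 0.00327) in ZH11 and -1.68 (SE 0.390, adjusted p = 0.00466) in OE-19. Without the watered libraries numbered 1 it was -2.20 and -1.95.

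OsARF18 (LOC_Os06g47150), the most abundant gene of the class and one whose miR160-resistant form alters rice growth, lay on the other side. Its levels were 15.5, 19 and 19.5 in ZH11-N and 24.9, 30.4 and 26.9 in ZH11-D, and 16.1, 21.2 and 18.1 in SNAC1-N and 25.3, 26.6 and 26.3 in SNAC1-D. All drought libraries were above all watered ones, with a log2FC of 0.59 (SE 0.139, adjusted p = 0.00464) in ZH11 and 0.49 (SE 0.139, adjusted p = 0.0129) in OE-19, under the size threshold. OsARF8 and OsARF18 were at similar levels in watered leaves, the ratio of OsARF18 to OsARF8 being 0.787 to 1.09, and in drought libraries that ratio was 4.89 to 13.2. OsARF13, the fourth gene, stayed at or under 0.441. LOC_Os10g33940, an ARF gene outside the set, had a log2FC of -0.26 in ZH11 and -0.39 in OE-19 and was not called.

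Among the other repressor-type genes, OsARF4 and OsARF23 were the most abundant ARF genes in the leaf. OsARF4 (LOC_Os01g70270) stood at 41.9, 48.4 and 56.6 in ZH11-N and 71.8, 82.5 and 73.9 in ZH11-D, and at 36.4, 52.8 and 47.5 in SNAC1-N and 71.9, 70.1 and 68.5 in SNAC1-D. The groups were separated in both genotypes at a log2FC of 0.64 (SE 0.163, adjusted p = 0.00741) in ZH11 and 0.63 (SE 0.163, adjusted p = 0.00797) in OE-19, again under the size threshold.

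OsARF23 (LOC_Os11g32110), which in rice acts together with OsARF24 on a gene of the actin cytoskeleton, was called higher in OE-19 and lay just under the threshold in ZH11. It read 22, 42.2 and 42.9 in ZH11-N and 60.6, 71.9 and 69.7 in ZH11-D, and 22.7, 45.9 and 40.4 in SNAC1-N and 67.6, 70.7 and 72.2 in SNAC1-D. Drought libraries were above watered ones throughout, and the watered libraries numbered 1 were the lowest by far. The log2FC was 0.96 (SE 0.295, adjusted p = 0.0184) in ZH11 and 1.00 (SE 0.295, adjusted p = 0.0159) in OE-19, with a difference between responses of 0.04 (SE 0.417, adjusted p = 1). Without the watered libraries numbered 1 it was 0.65 and 0.70. The call in OE-19 was also lost without SNAC1-D replicate 2 (0.99) or SNAC1-D replicate 3 (0.98), after median ratio scaling (0.92), after quantile normalization (0.98) and with a pseudocount of 1 (0.99), and the gene was called in ZH11 without ZH11-D replicate 1 (1.04), ZH11-N replicate 2 (1.12) or ZH11-N replicate 3 (1.13). Its partner OsARF24 had a log2FC of 0.47 in ZH11 and 0.44 in OE-19 (adjusted p = 0.0340 and 0.0462 by limma).

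OsARF1 (LOC_Os01g13520), a gene of low level, was called lower in OE-19, and in ZH11 its log2FC was under 1 in size with the pseudocount of 0.5. With a pseudocount of 0.1 it was -1.04 in ZH11 (adjusted p = 0.000857 by limma), and OsARF1 was then called in both genotypes. Its FPKM was 3.85, 4.40 and 3.99 in ZH11-N and 2.20, 1.76 and 1.86 in ZH11-D, and 4.24, 5.85 and 5.46 in SNAC1-N and 2.23, 1.72 and 2.57 in SNAC1-D. The groups were separated in both genotypes, with a log2FC of -0.91 (SE 0.159, adjusted p = 0.000829) in ZH11 and -1.09 (SE 0.159, adjusted p = 0.000298) in OE-19. The responses differed by -0.18 (SE 0.224, adjusted p = 1), and without SNAC1-D replicate 2 the value in OE-19 was -0.96. OsARF7 was lower at an adjusted p under 0.05 in both genotypes, at -0.72 and -0.66. OsARF9 had -0.81 and -0.84 with adjusted p values of 0.0758 and 0.0665, and without the watered libraries numbered 1 it was called in both genotypes, at -1.13 and -1.18 (adjusted p = 0.00244 and 0.00200). Leaving out ZH11-N replicate 1 or SNAC1-N replicate 1 alone gave the same values for OsARF9. LOC_Os07g08600 was listed at 0 in 10 libraries and at 0.0389 and 0.0384 in SNAC1-D replicates 1 and 2.

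**Figure D4:**
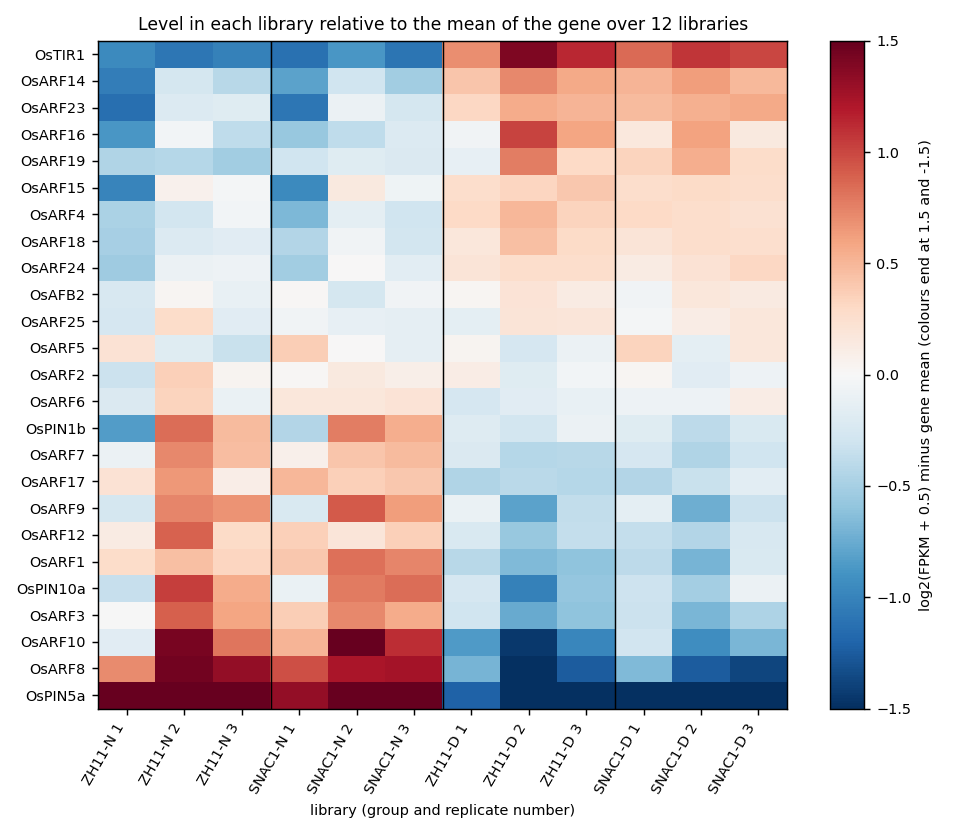
Level of each of the 25 tested genes in each library, as log2(FPKM + 0.5) minus the mean of the gene over 12 libraries, with genes ordered by their log2FC in ZH11 and colours ending at 1.5 and -1.5. OsTIR1 at the top and OsPIN5a, OsARF8 and OsARF10 at the bottom change colour between watered and drought libraries in both genotypes, and the watered libraries numbered 1 differ from numbers 2 and 3 in OsARF23, OsARF15 and OsPIN1b.

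A count that needs no fit gave a like picture. In ZH11 the 3 drought libraries lay wholly above the 3 watered ones for 8 of the 25 genes and wholly below for 8, beside 31.8% and 28.1% of all features. In OE-19 it was 10 above and 9 below, beside 34.5% and 29.7%. For each such gene the exact permutation test over 3 libraries against 3 gives its smallest possible p of 0.1 (two-sided), so separation of the libraries cannot by itself pass a threshold of 0.05.

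SNAC1 overexpression was compared with ZH11 within each watering condition, which asks whether OE-19 carries a different auxin gene programme. SNAC1 itself was called higher in OE-19 under normal watering (log2FC 4.51) and not called under drought (0.90), so the drought comparison holds a smaller SNAC1 difference. None of the 25 genes was called. Under normal watering the count was 0 beside 0.265% of all features, and under drought 0 beside 0.305%. In both conditions 0 of 25 had an unadjusted p under 0.05 (limma), beside 313 and 296 of the 19979 features. With the replicate number as a block within each watering condition, 2 genes in each condition had an unadjusted p under 0.05 (OsARF1 and OsARF10 under normal watering, OsARF5 and OsARF10 under drought, limma) and 0 were called. With this block, 1257 of all 19979 features had such a p under normal watering and 1042 under drought. The log2FC of OE-19 against ZH11 ran from -0.22 (OsPIN5a) to 0.36 (OsARF10) under normal watering, with a median of 0.04. Under drought it ran from -0.22 (OsARF16) to 0.46 (OsARF10), with a median of 0.02.

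OsTIR1 did not pass the test between genotypes, with differences of -0.01 under normal watering and -0.10 under drought. The 95% intervals ran from -0.39 to 0.37 and from -0.48 to 0.28, so a difference of 1 on the log2 scale lies outside both. For OsARF10, the gene with the largest difference, the log2FC was 0.36 (SE 0.390, adjusted p = 1) under normal watering (interval from -0.51 to 1.23) and 0.46 (SE 0.390, adjusted p = 1) under drought (interval from -0.41 to 1.33). With the replicate number as a block within each watering condition the intervals were narrower, from 0.06 to 0.66 and from 0.16 to 0.76, and the adjusted p was 0.646 and 0.565 (limma). These narrower intervals rest on pairing by replicate number, which is assumed. OsPIN5a had -0.22 under normal watering and 0.16 under drought, with intervals from -1.13 to 0.70 and from -0.76 to 1.07, and with the block from -0.84 to 0.41 and from -0.47 to 0.79. The 3 OE-19 libraries lay above the 3 ZH11 libraries for 1 gene in each condition and below for 0. OsARF19 was that gene under normal watering, at 1.98, 2.18 and 2.12 against 1.74, 1.77 and 1.62, and OsARF6 under drought, at 10.4, 10.4 and 11.9 against 9.11, 9.71 and 10.1. Over all features, 3.08% were separated in either direction under normal watering and 6.25% under drought.

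**Figure D5:**
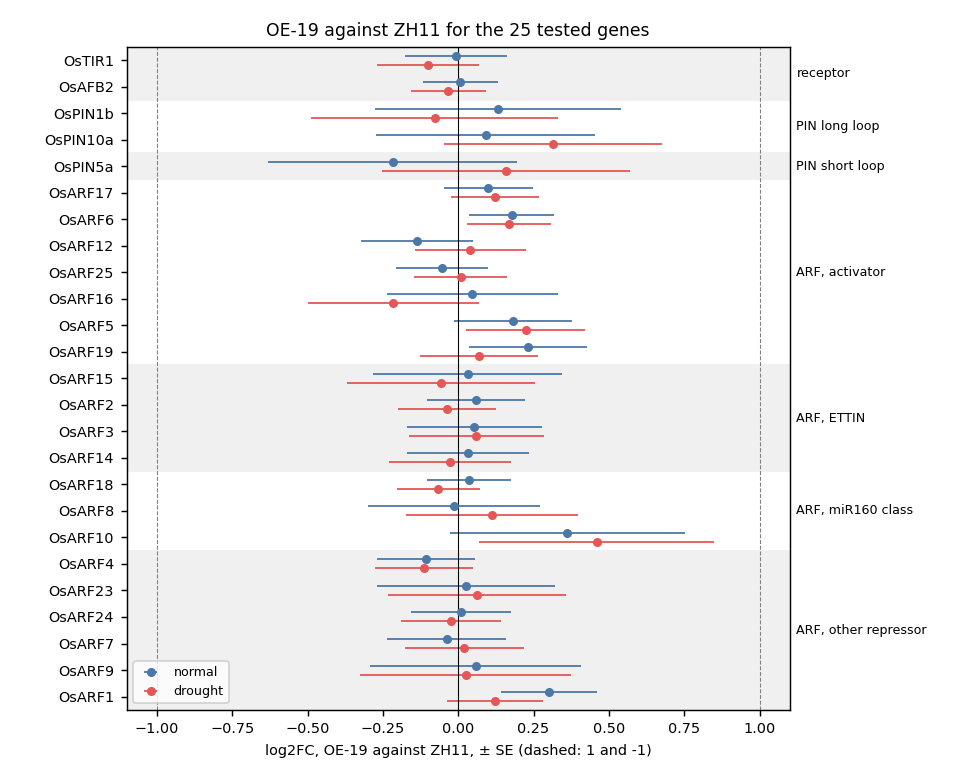
Difference between OE-19 and ZH11 for the 25 tested genes, as log2FC ± SE from limma, under normal watering (blue) and drought (red), with genes grouped by role. All points lie between -0.22 and 0.46, within the dashed lines at 1 and -1.

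The drought response itself was compared between genotypes with the interaction term. No gene was called, beside 0.02% of all features. By limma, 0 of 25 had an unadjusted p under 0.05, beside 176 of the 19979 features. The difference between the responses had a median size of 0.0886 over the 25 genes and a median SE of 0.278. OsPIN5a had the largest difference, 0.38 (SE 0.582, adjusted p = 1), with a 95% interval from -0.92 to 1.67. For OsTIR1 the difference was -0.09 (SE 0.240, adjusted p = 1), with an interval from -0.63 to 0.44.

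The rest of the auxin pathway was read from lists of rice genes. In ZH11, 14 of 25 tested Aux/IAA genes (of 31 listed) were called lower under drought and 5 higher, and in OE-19 14 were lower and 3 higher. The median log2FC of these repressors, which are both the targets of the receptors and the partners of the ARF proteins, was -1.36 in ZH11 and -1.13 in OE-19. All 3 tested influx carriers of the AUX1/LAX family (of 5 listed) were called lower in both genotypes, with a median of -3.05 and -2.90. Of 3 tested auxin synthesis genes (of 9 listed), 2 were called lower in each genotype, and 0 were higher in ZH11 and 1 in OE-19. GH3 genes form a family in which some enzymes conjugate auxin to amino acids, and which of the listed ones do so was not checked. Among 6 tested GH3 genes (of 13 listed), 2 were higher in each genotype, with 1 lower in ZH11 and 0 in OE-19. The 3 TOPLESS corepressor genes gave no call. LOC_Os06g12610, a PIN gene outside the set, was called lower in both genotypes at -2.10 and -2.18. In none of these lists was a gene called between OE-19 and ZH11 in either watering condition. These lists cover small numbers of genes, and their shares stand beside the same background of 13.8% higher and 18.2% lower in ZH11 and 13.2% and 17.9% in OE-19.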

How the data were processed

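Leaf RNA was measured by RNA-seq in 12 libraries, grouped by their labels into 4 groups of 3. The authors aligned the reads with HISAT2, as the submitters' processing notes name it beside StringTie and DESeq2, and deposited FPKM values per feature, with no fragment counts. All per-sample columns of the table were used, and the authors' interval tables of SNAC1 binding were not analysed here.

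From the deposited FPKM values, log2(FPKM + 0.5) was computed, and the 19979 features whose FPKM averaged 1 or more were kept. limma 3.58.1 (R 4.3.3) fitted 4 group means over the 12 libraries, letting the variance depend on the mean level, with two-sided moderated tests and Benjamini-Hochberg adjustment. A call needed an absolute log2FC of 1 or more with an adjusted p under 0.05, and for the interaction the adjusted p alone. P-values measure the spread between these libraries. The fit takes the 12 libraries as independent, although those numbered 1 deviated together between the genotypes. The spread behind the drought p-values may thus rest on fewer independent libraries than counted, and those p-values may be too small. The fitting script was checked on data with known answers.

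Pairing of the genotypes by replicate number within a watering condition is an assumption. The labels say that plants of both genotypes shared pots, but that a number stands for a pot was not established here. Deviations from the group means correlated between libraries of the same number (0.882, 0.486 and 0.507 under normal watering and 0.589, 0.580 and 0.211 under drought). Some libraries of unlike number correlated as well or better (SNAC1-N 2 with ZH11-N 3 at 0.717, SNAC1-N 3 with ZH11-N 2 at 0.600 and SNAC1-D 2 with ZH11-D 3 at 0.276). Under normal watering these values thus do not match numbers 2 and 3 between the genotypes. Between watering conditions the correlations were -0.127 to -0.0432.

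Members and gene lists were chosen with earlier results of these data known. Locus identifiers of the members carry the names of the list by which they were chosen. RefSeq places 21 ARF and 8 PIN names on the same chromosome and does not list 7 others, while 2 are called by identifier. RefSeq gives some of these names to a gene on a second chromosome as well (OsARF1, OsARF8, OsARF10, OsARF16, OsPIN1b, OsPIN1c, OsPIN5b and OsPIN5c), and a table of the study calls LOC_Os11g32110, here OsARF23, by the name OsARF1. The lists of other pathway genes and markers came from general knowledge of these families and were not paired with names here. Values of every library are given for members called in any comparison and for the most abundant member of each role group. Other members are named where a count or a group is described. Alternatives changed the pseudocount, filter, scaling, variance model, groups in the fit, replicate block, thresholds and libraries.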

Additional observations from a re-analysis of the deposited data

How the results depend on the processing

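No value changed sign with a call under any alternative tried. OsTIR1, OsPIN5a, OsARF8 and OsARF10 were called in both genotypes under all 24 alternatives of the drought comparisons. These 24 are not equal checks. The replicate block, variance model, filter, groups in the fit and libraries left out of the other genotype can change the p-values but not the log2FC of a gene. The adjusted p alone cannot lose a call. The log2FC of OsTIR1 ran from 1.93 to 2.28 in ZH11 and from 1.93 to 2.08 in OE-19, that of OsPIN5a from -4.66 to -3.96 and from -4.13 to -3.58, that of OsARF8 from -2.63 to -2.13 and from -2.46 to -2.11, and that of OsARF10 from -2.20 to -1.41 and from -1.95 to -1.44. The other calls were near the size threshold, and that of OsPIN10a was also near the threshold of the adjusted p. The counts over all features moved too, from 2759 higher and 3632 lower in ZH11 and 2633 and 3568 in OE-19. In ZH11 the 2 genes called higher became 1 with a mean FPKM of at least 5, beside 2140 of 13933 features. They became 1 with a threshold of 1.5, 8 by the adjusted p alone and 1 without the watered libraries numbered 1. Beside these stood 1674, 5657 and 3103 of all 19979 features. The 5 called lower became 3 with a pseudocount of 1, 3 after quantile normalization, 3 with a threshold of 1.5 and 9 by the adjusted p alone. Beside these, 3402, 3438, 2514 and 5200 of all features were lower. In OE-19 the 3 called higher became 1 with a pseudocount of 1, 1 with a threshold of 1.5, 7 by the adjusted p alone and 1 without the watered libraries numbered 1. Over all features, 2415, 1542, 5577 and 2965 were then higher. The 5 called lower in OE-19 became 3 with a pseudocount of 1, 3 after quantile normalization, 3 with a threshold of 1.5 and 8 by the adjusted p alone. Over all features, 3339, 3446, 2423 and 5086 were then lower. The calls lost with a pseudocount of 1 and after quantile normalization were those of OsARF3 and OsPIN10a in ZH11 and of OsARF3, OsARF1 and OsARF23 in OE-19, with OsARF14 in OE-19 lost with a pseudocount of 1 alone. Leaving out 1 library at a time gave 1 to 4 higher and 3 to 6 lower in ZH11, and 1 to 3 higher and 3 to 7 lower in OE-19. Over all features this gave 2401 to 2955 higher and 3229 to 4046 lower in ZH11. In OE-19 it gave 2306 to 2808 and 3174 to 3958. OsARF16 was called higher in ZH11 without ZH11-D replicate 1 (1.23) or ZH11-N replicate 2 (1.15). It was also called there with a pseudocount of 0.1 (1.02) and after quantile normalization (1.03). With a pseudocount of 0.1, OsARF1 was called lower in ZH11 (-1.04). That pseudocount gave 3 higher and 6 lower in ZH11, beside 2962 and 3802 of all features. In OE-19 it gave 3 and 5, beside 2833 and 3733. With the replicate block the counts were 2 higher and 5 lower in ZH11 and 3 higher and 5 lower in OE-19, and the block changed no call. That block ties numbers across watering conditions, between which the correlations were -0.127 to -0.0432. The unchanged calls are therefore no check of a shared library effect. The counts between genotypes and of the interaction were 0 under every alternative run. Without fragment counts, the counting error of genes with an FPKM near or below 1 is unknown, and the 13 genes below the filter carry no test. The causes of these changes were not tested beyond the construction of each alternative. The analysis of SNAC1-bound intervals, with its alternatives, was not run.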
